A study of Mus musculus with 12 samples.

Results

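Beta-adrenergic receptors and the cyclic AMP machinery behind them were followed as 9 genes, chosen by symbol and role from the 53379 Ensembl genes of the count files. They were the receptors Adrb1 and Adrb3, the stimulatory G protein gene Gnas, the adenylyl cyclase Adcy3, the protein kinase A subunits Prkaca and Prkar2b, and the phosphodiesterases Pde3b, Pde4b and Pde4d. All 9 passed the filter on low counts, as did 16554 genes in all. RNA was sequenced from perigonadal white adipose tissue, a visceral fat depot. The C57BL/6 mice were 9 weeks old and were killed at zeitgeber time 9. One genotype, ko, lacks Cdk7, a kinase of the general transcription machinery, in adipose tissue; the other, wt, comprised control littermates with Cdk7 intact. Mice of each genotype received CL or saline for 7 days, and CL is the abbreviation used in this field for an agonist of the beta-3 receptor. The 4 groups were ko CL, ko saline, wt CL and wt saline, with 3 libraries each. Every library pooled RNA of 2 mice, 250 ng from each, so that 6 mice stood behind a group and p-values measure the spread between pools. The line that drives the knockout is not given in the sources used here, and the fat pad still holds the cells that an adipose-specific deletion leaves intact.

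In fat cells, noradrenaline and beta agonists bind beta receptors, which act through the stimulatory G protein on adenylyl cyclases. The cyclic AMP they make binds the regulatory subunits of protein kinase A and frees its catalytic subunits, which phosphorylate lipid droplet proteins and lipases and so drive lipolysis, and also switch on thermogenic genes. Phosphodiesterases degrade cyclic AMP. Sustained agonist exposure is known to weaken the response to the agonist, which is called desensitization, and to lower the number of receptors.

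Depth was 21892817 to 27985019 gene counts per library. The unit of level is CPM, the count of a gene relative to its library's TMM-corrected total (TMM is a trimmed-mean correction for composition), and called means an adjusted p under 0.05 in edgeR's quasi-likelihood test over all 16554 genes. Cdk7 averaged 20.4 ± 2.85 CPM in ko CL and 11.4 ± 0.357 CPM in ko saline, against 32.7 ± 2.56 CPM in wt CL and 29.6 ± 0.348 CPM in wt saline (SD, n = 3 each), so its levels fit the genotypes in the sample titles. A genotype tag in the labels follows treatment and contradicts 6 of the 12 titles; the titles were used. The 20 adipocyte markers were all detected in every group. Their summed level was 31536 to 42246 CPM in ko CL, 50415 to 53223 CPM in ko saline, 89032 to 96428 CPM in wt CL and 80357 to 86150 CPM in wt saline. The sum of 19 macrophage markers (without Lpl, which fat cells also express) was 12249 to 17671 CPM in ko CL, 1856 to 1937 CPM in ko saline, 1047 to 1283 CPM in wt CL and 1898 to 1999 CPM in wt saline. Library ko CL 1 had both the lowest adipocyte sum and the highest macrophage sum of its group. In bulk tissue, fewer cells of a type and less RNA per cell cannot be told apart.

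CL moved these genes differently in the 2 genotypes. In ko fat under CL, 1 of the 9 genes rose (Adcy3), 4 fell (Adrb1, Adrb3, Prkar2b and Pde3b) and 4 were not called, with a median log2 fold change of -0.32 against -0.01 over all genes. Of all genes, 54.6% were called there, 27.2% as higher and 27.5% as lower. The libraries of the groups did not overlap for 6 of the 9, with CL above for 1 and below for 5, against 29.7% of all genes above and 31.2% below. In wt fat under CL, 4 rose (Prkaca, Prkar2b, Pde4b and Pde4d), only Adrb3 fell, and 4 were not called, with a median of 0.45 against -0.01 over all genes. The share of all genes called was 36.8% in that comparison, 19.6% higher and 17.1% lower. There, CL lay above saline without overlap for 6 of the 9 genes and below for 1, against 26.6% and 24.4% of all genes. The difference between the responses, ko minus wt, was called for 7 of the 9 genes, 6 as lower and 1 as higher, against 45.4% of all genes (23.6% lower, 21.8% higher); the median was -0.80 against -0.03 over all genes.

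More of the 9 genes differed between the genotypes under CL than under saline. Under CL, 8 of the 9 genes were lower in ko than in wt and Adcy3 was higher, where 56.8% of all genes were called, 29.3% as lower and 27.6% as higher. Their median log2 fold change was -1.12, against 0.00 over all genes. For all 9 the libraries did not overlap, with 1 above and 8 below, against 30.9% of all genes above and 32.7% below. Under saline, Adrb3, Adcy3, Pde3b and Pde4d were lower in ko and 5 genes were not called, where 14.4% of all genes were called, 6.45% as lower and 7.99% as higher. The median under saline was -0.13, against -0.01 over all genes. Without overlap, ko lay below wt for 6 genes and above for none, against 18.2% and 19.4% of all genes. The CL comparisons and the genotype comparisons share their groups, so their values are set side by side and are not independent of each other.

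**Figure D1:**
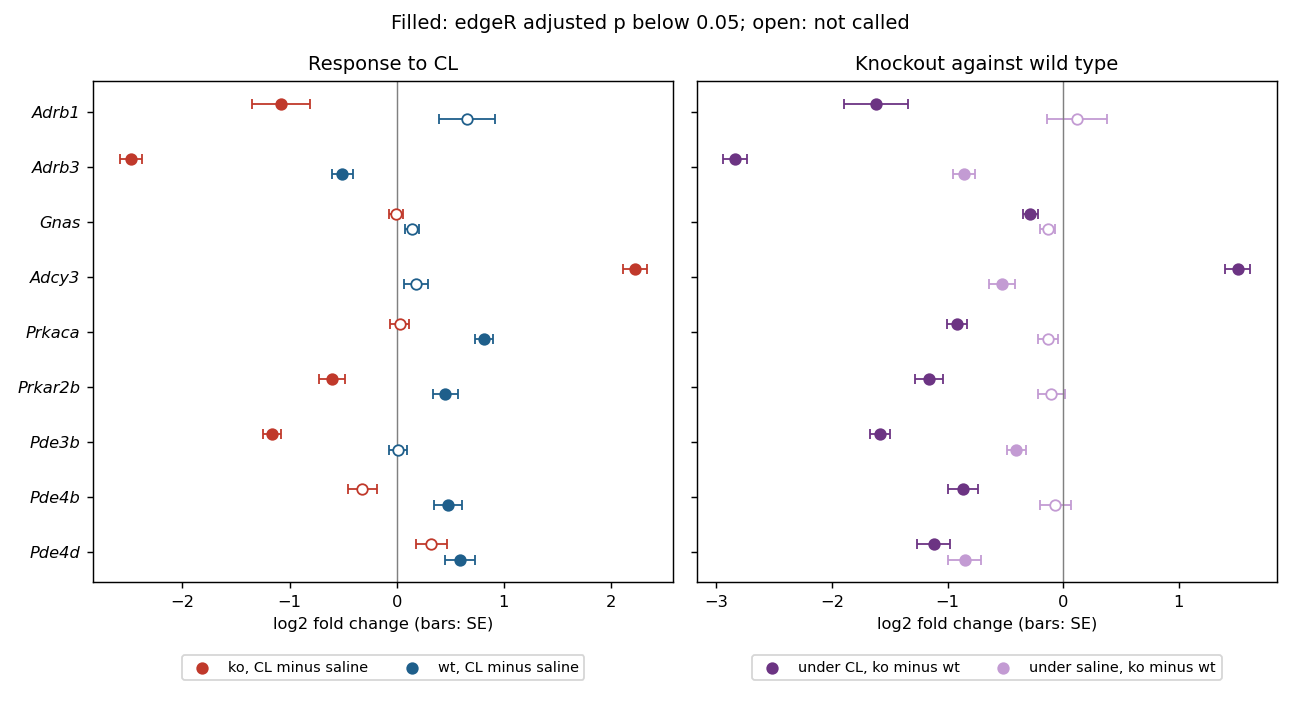
Log2 fold changes of the 9 genes with standard errors (bars), for the response to CL in ko and wt (left) and for ko against wt under CL and saline (right); filled points have an edgeR adjusted p under 0.05. Adrb3 lies lowest in each panel, at -2.48 for CL in ko and -2.83 for ko against wt under CL, while Adcy3 lies at 2.22 and 1.51 in the same comparisons.

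The 4 genes that rose under CL in wt fat are shown first by the 250 bases before an annotated transcription start, because cyclic AMP acts on transcription through the factor CREB, whose textbook site is TGACGTCA. RefSeq windows were matched for 7 of the 9 genes (all but Adrb3 and Pde3b). There were 16 windows in all, since a gene can have several starts. For each gene shown, the matched window farthest upstream is printed. The printed Pde4b and Pde4d windows lie inside genes annotated from 102087543 and 108449948, so the starts farthest upstream have no window here. For the printed Prkaca and Prkar2b windows, the bases after the start were not found in an annotated transcript of the gene. Capitals mark the motif TGACG, read on either strand, so that CGTCA is the same motif on the other strand; it is contained in the full site TGACGTCA. The windows are from GRCm38.p6 and run 5′ to 3′ on the strand of the gene.
Prkaca, chr8:83972728-83972977, plus strand: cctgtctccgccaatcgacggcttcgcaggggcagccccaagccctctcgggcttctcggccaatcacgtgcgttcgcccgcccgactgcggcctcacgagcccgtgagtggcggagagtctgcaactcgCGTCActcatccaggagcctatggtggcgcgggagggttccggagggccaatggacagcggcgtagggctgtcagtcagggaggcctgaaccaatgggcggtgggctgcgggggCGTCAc
Prkar2b, chr12:32061278-32061527, minus strand: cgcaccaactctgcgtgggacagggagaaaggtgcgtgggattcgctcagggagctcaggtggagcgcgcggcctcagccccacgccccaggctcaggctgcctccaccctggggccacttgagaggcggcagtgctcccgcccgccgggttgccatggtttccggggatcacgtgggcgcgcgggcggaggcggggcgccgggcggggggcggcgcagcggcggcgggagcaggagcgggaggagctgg
Pde4b, chr4:102421305-102421554, plus strand: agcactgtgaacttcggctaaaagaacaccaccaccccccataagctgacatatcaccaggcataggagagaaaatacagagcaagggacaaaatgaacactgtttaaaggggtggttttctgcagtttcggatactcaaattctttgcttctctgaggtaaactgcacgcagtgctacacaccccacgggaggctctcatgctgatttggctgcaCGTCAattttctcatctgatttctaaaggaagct
Pde4d, chr13:108653927-108654176, plus strand: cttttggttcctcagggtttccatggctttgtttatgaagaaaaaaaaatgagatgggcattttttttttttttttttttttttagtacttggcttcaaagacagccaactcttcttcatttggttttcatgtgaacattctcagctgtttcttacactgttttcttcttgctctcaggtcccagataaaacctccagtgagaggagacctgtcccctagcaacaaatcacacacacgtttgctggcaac
The printed Prkaca window holds the motif in 2 places, starting 120 and 6 bases before the transcription start, and the printed Pde4b window holds it once, 34 bases before. The other 3 windows of Pde4b, the other window of Prkaca, both windows of Prkar2b and the window of Pde4d do not hold these letters. In all, 6 of the 16 windows, from Adrb1, Gnas, Pde4b and Prkaca, held TGACG, against 17.8% of 32851 RefSeq windows of the same length; a pair of the Gnas windows overlap and hold the same site, so the windows are not independent. None of the 16 held the full TGACGTCA, which 1.55% of the windows do. Among the motif-bearing genes Prkaca and Pde4b rose under CL in wt fat, while Adrb1 and Gnas were not called.

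Adrb3 encodes the beta-3 receptor, the main beta receptor of rodent fat cells and the target of beta-3 agonists (ENSMUSG00000031489, chromosome 8, 27225776 to 27250616, minus strand, GRCm38). It was at 62.7, 82.6 and 73.8 CPM in ko CL and at 372, 419 and 435 CPM in ko saline. In wt it was at 541, 511 and 511 CPM under CL and at 698, 772 and 754 CPM under saline. The groups therefore ran, from high to low, wt saline, wt CL, ko saline and ko CL, and the libraries of neighbouring groups did not overlap. Under CL, Adrb3 fell to 17.9% of its saline level in ko (log2 fold change -2.48 ± 0.10 SE, adjusted p = 3.2e-09) and to 70.3% in wt (-0.51 ± 0.10, adjusted p = 0.0013). The difference between the responses was -1.98 ± 0.14 on the log2 scale (adjusted p = 3.1e-07, edgeR). Against wt, Adrb3 in ko differed by -2.83 ± 0.10 under CL (adjusted p = 7.8e-10) and was at 55.2% under saline (-0.86 ± 0.10, adjusted p = 0.00024). Gm45470, an antisense gene that shares 839 exonic bases, had at most 432 counts in a library, against 1711 to 21179 counts of Adrb3.

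Adrb1 encodes the beta-1 receptor, which binds noradrenaline in heart and fat (ENSMUSG00000035283, chromosome 19, 56722199 to 56733113, plus strand). It was rare, with 18 to 49 counts in a library. Its level was 0.728, 0.634 and 0.776 CPM in ko CL and 1.56, 1.79 and 1.18 CPM in ko saline, so the ko groups did not overlap. In wt it was at 2.18, 1.90 and 2.49 CPM under CL and at 1.85, 1.001 and 1.32 CPM under saline; these groups did not overlap either. CL lowered Adrb1 in ko by 1.08 ± 0.27 on the log2 scale (adjusted p = 0.0048), whereas its value in wt was 0.66 ± 0.26 (adjusted p = 0.064). That wt value was 0.90 with an adjusted p of 0.024 without wt saline 1. The responses differed by -1.74 ± 0.38 (adjusted p = 0.0023). Under CL, Adrb1 in ko was at 32.5% of wt (-1.62 ± 0.28, adjusted p = 0.00023, edgeR), while under saline the genotypes overlapped and the value was 0.12 ± 0.26 (adjusted p = 0.81).

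**Figure D2:**
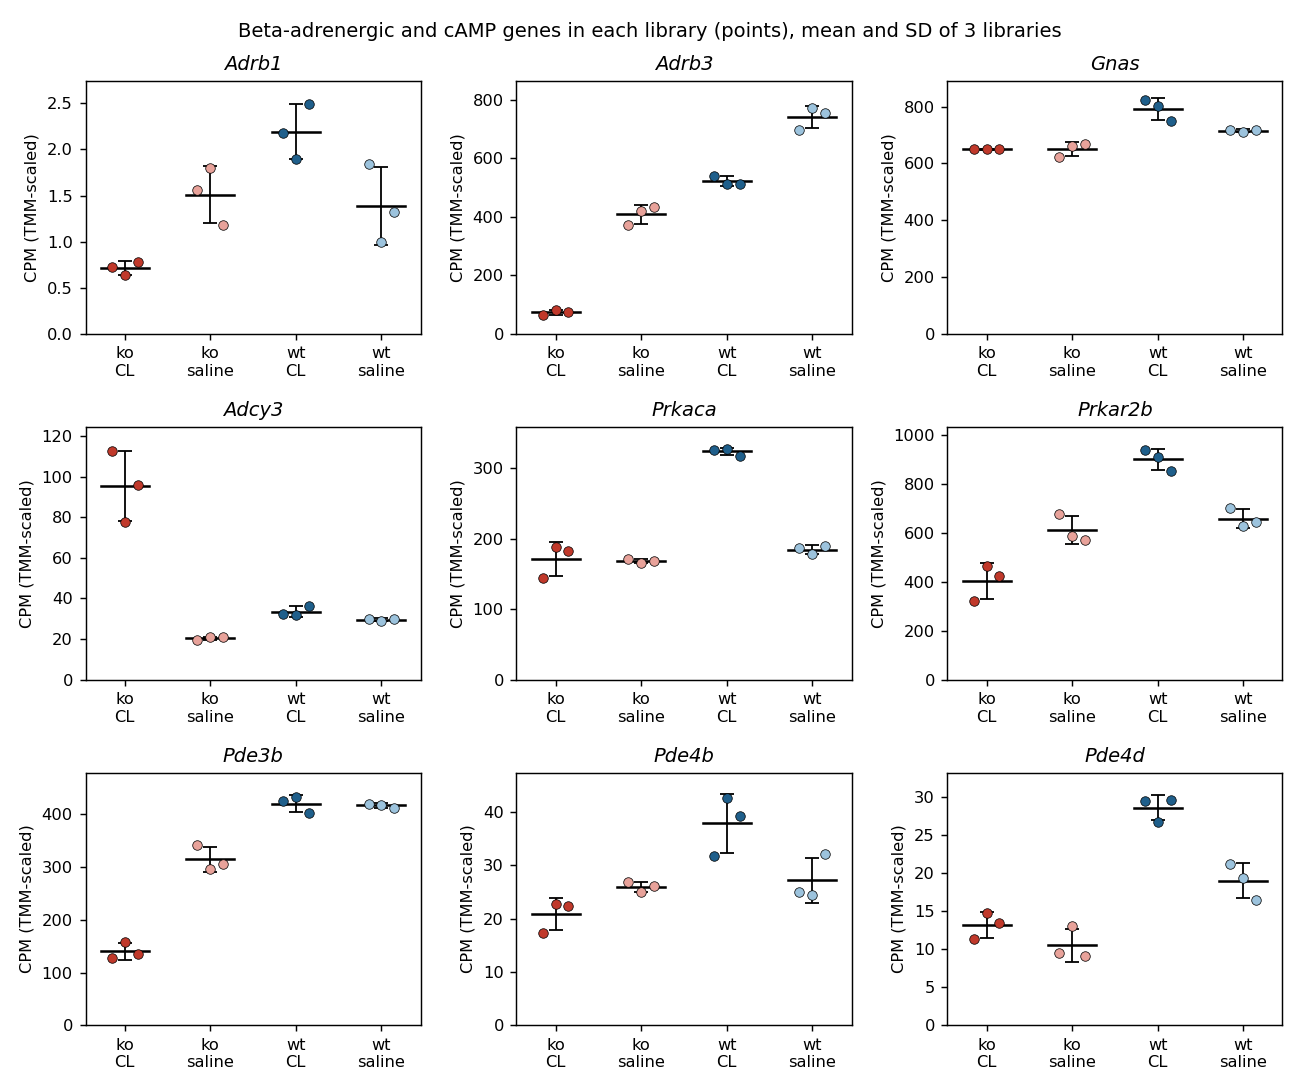
CPM after TMM scaling of each of the 9 genes in every library (points) with the mean and SD of 3 libraries (bars), for ko CL, ko saline, wt CL and wt saline. The 3 ko CL libraries lie at 62.7 to 82.6 CPM for Adrb3, below all other libraries, and at 77.8 to 113 CPM for Adcy3, above all others; Gnas stays between 624 and 824 CPM throughout.

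By the same 12 libraries, the 5 protein-coding genes most like Adrb3 among 10643 candidates were Dcst1, Chst1, Amy1, Pck1 and Tmem45b. Likeness was the root mean square difference of centred log2 CPM over the 12 libraries, which was 0.18 for Dcst1, 0.31 for Chst1, 0.33 for Amy1, 0.34 for Pck1 and 0.36 for Tmem45b. Amy1 has near-identical amylase copies, so its counts are uncertain. Pck1, a gluconeogenic and glyceroneogenic enzyme of fat that is also one of the 20 adipocyte markers, was at 391, 381 and 306 CPM in ko CL and at 1213, 1374 and 1170 CPM in ko saline. Its wt levels were 2730, 2117 and 1897 CPM under CL and 2831, 2565 and 2050 CPM under saline, so the wt groups overlapped while the ko groups did not.

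Adrb3 lay below every adipocyte marker for CL in ko and for ko against wt under CL, but not for ko against wt under saline. Of the 20 markers, 14 fell and none rose under CL in ko, where 27.5% of all genes fell and 27.2% rose. Their median was -0.50, against -0.01 over all genes, and their lowest value was -1.80, against -2.48 for Adrb3. In that comparison, 461 of the 16554 genes lay lower than Adrb3. Between ko and wt under CL, 19 of the 20 were lower in ko, against 29.3% of all genes. Their median was -1.39, against 0.00 over all genes, and their lowest value was -2.65 (Pck1), against -2.83 for Adrb3. There, 59 of the 16554 genes lay lower than Adrb3. Under saline, 14 of the 20 were lower in ko, against 6.45% of all genes, with a median of -0.77 against -0.01 over all genes. Of the 20, 9 lay below the Adrb3 value of -0.86, as did 417 of the 16554 genes. Pde3b and Prkar2b lay inside the range of the markers in each of these comparisons. The part of adipocyte content in the lower levels of these genes was not tested.

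**Figure D3:**
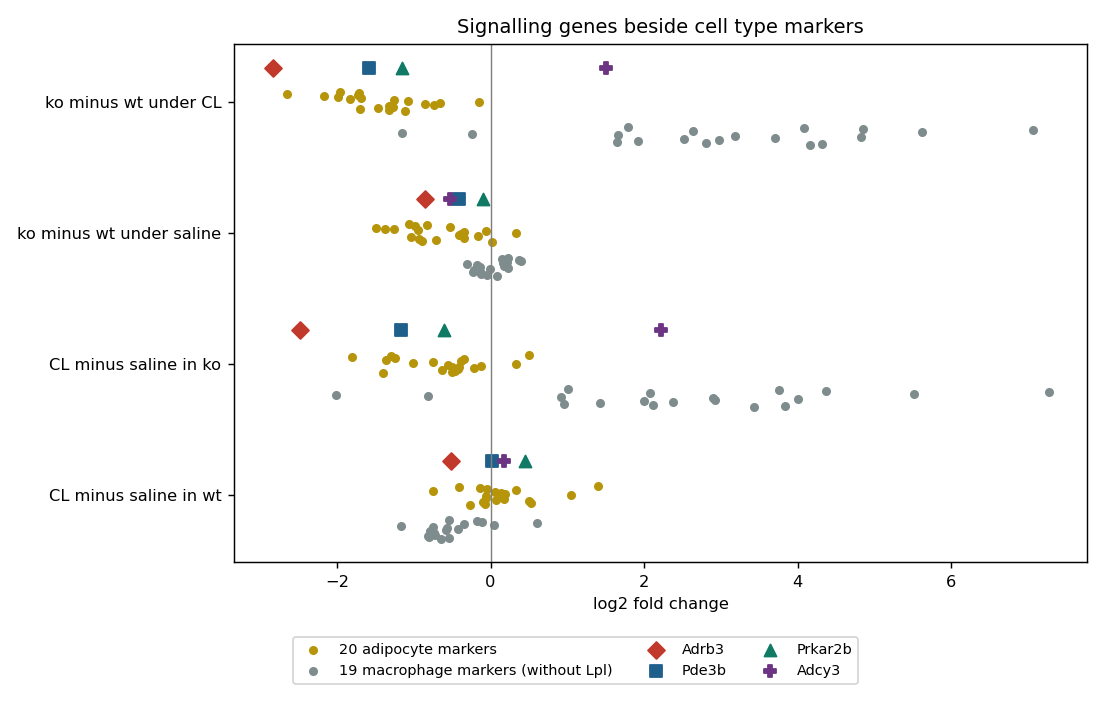
Log2 fold changes of Adrb3, Pde3b, Prkar2b and Adcy3 beside 20 adipocyte markers and 19 macrophage markers, one row block per comparison. Adrb3 lies below every adipocyte marker for CL in ko and for ko against wt under CL, and Adcy3 lies on the side of most macrophage markers in both. Markers of other cell types are not plotted.

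Gnas encodes the stimulatory G protein alpha subunit among several products of 1 imprinted locus, which gene-level counts do not separate (ENSMUSG00000027523, chromosome 2, 174284320 to 174346744, plus strand). It varied little, at 649, 652 and 650 CPM in ko CL and 624, 663 and 670 CPM in ko saline. Levels in wt were at 824, 801 and 749 CPM under CL and 717, 710 and 719 CPM under saline. The ko groups overlapped, and CL gave 0.00 ± 0.07 in ko (adjusted p = 0.96) and 0.15 ± 0.07 in wt (adjusted p = 0.098), which DESeq2 called (0.13, adjusted p = 0.030). With libraries scaled by total alone, the wt value was -0.17 (adjusted p = 0.052, edgeR). Under CL it was lower in ko than in wt by a small margin, at 82.2% (-0.28 ± 0.07, adjusted p = 0.0023, edgeR), a direction that turned to 0.10 when libraries were scaled by total alone.

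Adcy3 encodes an adenylyl cyclase that is expressed in fat and in olfactory neurons (ENSMUSG00000020654, chromosome 12, 4133103 to 4213525, plus strand). Under CL in ko it was the only one of the 9 genes to rise. Its level was 113, 77.8 and 95.9 CPM in ko CL and 19.7, 20.9 and 20.8 CPM in ko saline. Levels in wt were at 32.1, 32.0 and 36.4 CPM under CL and 29.7, 28.9 and 30.1 CPM under saline. Every ko CL library lay above every other library, and every ko saline library below every other. CL raised Adcy3 in ko 4.66-fold (2.22 ± 0.11, adjusted p = 8.9e-09), while the wt value was 0.18 ± 0.11 (adjusted p = 0.22); the responses differed by 2.04 ± 0.16 (adjusted p = 6.4e-07, edgeR). Relative to wt, Adcy3 in ko was 2.85-fold higher under CL (1.51 ± 0.11, adjusted p = 1.4e-07) and at 69.2% under saline (-0.53 ± 0.11, adjusted p = 0.0091). Cenpo, on the opposite strand, shares 1380 exonic bases with Adcy3; its counts were 320 to 467 in ko CL and 266 to 320 in ko saline, against 2225 to 3250 and 542 to 652 counts of Adcy3 in the same groups.

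Among the 10 adenylyl cyclases, 4 rose and 5 fell under CL in ko, and 1 rose and 4 fell in wt. Over all genes, 27.2% rose and 27.5% fell in ko, and 19.6% rose and 17.1% fell in wt. Adcy7, a cyclase abundant in blood cells, was at 306, 178 and 219 CPM in ko CL and 45.3, 46.7 and 50.8 CPM in ko saline, against 32.0, 30.2 and 32.1 CPM in wt CL and 56.7, 49.8 and 52.8 CPM in wt saline. It rose in ko (2.30 ± 0.15) and fell in wt (-0.76 ± 0.15), a difference of 3.06 ± 0.21 (adjusted p = 3.2e-07, edgeR). Adcy5 fell in both genotypes, by 1.72 ± 0.13 in ko and by 0.60 ± 0.13 in wt on the log2 scale. Adcy6 fell in ko (-0.70 ± 0.09) and was at -0.12 ± 0.09 in wt (adjusted p = 0.35). Adcy10, the soluble cyclase that responds to bicarbonate, rose in both, by 2.03 ± 0.26 in ko and 2.74 ± 0.27 in wt, and its responses were not called different (-0.71 ± 0.37, adjusted p = 0.14), although they were without ko saline 2 (-0.94, adjusted p = 0.049) or ko CL 3 (-1.03, adjusted p = 0.020, edgeR).

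The make-up of the cyclase pool in ko CL stood apart from that of the other groups. Per kilobase of exon, it summed to 89.3 CPM per kb in ko CL, 73.5 in ko saline, 71.3 in wt CL and 78.5 in wt saline. Adcy5 and Adcy6 together made up 21.9%, 33.1% and 27.6% of it in ko CL, against 68.8%, 68.8% and 69.1% in ko saline. Adcy3 and Adcy7 together made up 63.6%, 49.4% and 53.6% in ko CL, against 13.8%, 13.5% and 15.02% in ko saline. Adcy5 and Adcy6 held 63.7 ± 2.99% in wt CL and 70.5 ± 0.681% in wt saline, and Adcy3 and Adcy7 held 14.1 ± 1.42% in wt CL and 16.1 ± 0.632% in wt saline (SD, n = 3 each). Of the 20 macrophage markers with Lpl, 17 rose and 2 fell under CL in ko, where Adcy3 and Adcy7 rose, and 13 fell and none rose in wt. Over all genes, 27.2% rose and 27.5% fell in ko, and 19.6% rose and 17.1% fell in wt. The sum of 10 fibroblast and progenitor markers was 6054 to 7478 CPM in ko CL and 3653 to 4623 CPM in ko saline. In wt that sum was 2689 to 3165 CPM under CL and 4051 to 4222 CPM under saline. The part of these cells in the cyclase change was not tested.

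**Figure D4:**
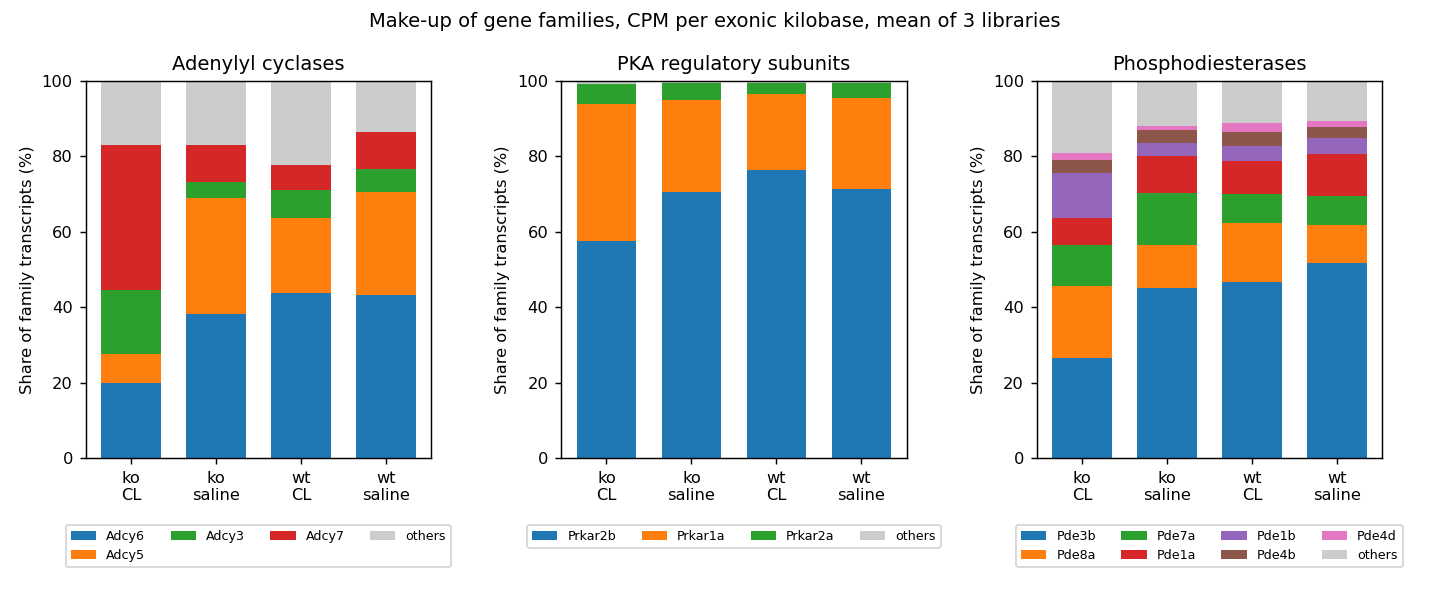
Stacked mean shares (percent, 3 libraries per group) of the transcripts of adenylyl cyclases, protein kinase A regulatory subunits and phosphodiesterases, each in CPM per exonic kilobase. Adcy3 and Adcy7 together take 55.5% of the cyclase pool in ko CL against 14.1% in ko saline, and Prkar2b and Pde3b take smaller shares of their families in ko CL than in the other groups.

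Prkaca encodes the main catalytic subunit of protein kinase A (ENSMUSG00000005469, chromosome 8, 83972993 to 83996443, plus strand), and its promoter window above carries the motif in 2 places. It was at 144, 188 and 182 CPM in ko CL and 172, 165 and 168 CPM in ko saline, so the ko groups overlapped. Levels in wt were at 326, 328 and 318 CPM under CL and 186, 178 and 190 CPM under saline, with a wide gap between the groups. CL raised it 1.76-fold in wt (0.81 ± 0.09, adjusted p = 1.8e-05), while the ko value was 0.03 ± 0.09 (adjusted p = 0.81); the responses differed by -0.79 ± 0.12 (adjusted p = 0.0002, edgeR). Under CL, Prkaca in ko was at 52.9% of wt (-0.92 ± 0.09, adjusted p = 1.3e-06), and under saline it was at 91.3% (-0.13 ± 0.09, adjusted p = 0.34).

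Prkar2b encodes the regulatory subunit that fat cells express most (ENSMUSG00000002997, chromosome 12, 31958476 to 32061296, minus strand). It was at 322, 467 and 424 CPM in ko CL and 680, 586 and 573 CPM in ko saline. The wt libraries were at 940, 910 and 854 CPM under CL and 702, 628 and 643 CPM under saline. CL thus moved it in opposite directions without overlap in either genotype, with -0.60 ± 0.12 in ko (adjusted p = 0.00099) and 0.45 ± 0.12 in wt (adjusted p = 0.01). The responses differed by -1.06 ± 0.17 (adjusted p = 0.00027), and ko under CL stood at 44.8% of wt (-1.16 ± 0.12, adjusted p = 3.5e-06, edgeR). Under saline the genotypes overlapped, with -0.10 ± 0.12 (adjusted p = 0.62).

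Within the 4 regulatory subunits, Prkar2b made up 57.7 ± 6.18% of the transcripts per kilobase in ko CL, 70.5 ± 1.72% in ko saline, 76.4 ± 1.12% in wt CL and 71.4 ± 1.91% in wt saline (SD, n = 3 each). The share was lower by 12.8 points under CL than under saline in ko and higher by 5.04 points in wt, each with an exact two-sided permutation p of 0.1, which is the smallest that 3 against 3 libraries can give. Prkar1a took up 36.2 ± 5.396% in ko CL, against 24.4 ± 1.68% in ko saline. The kinase inhibitor Pkib, a small protein that blocks the catalytic subunit, was at 26.8, 17.5 and 15.9 CPM in ko CL and 1.45, 1.76 and 2.17 CPM in ko saline. Its wt levels were 1.84, 0.598 and 1.12 CPM under CL and 1.92, 1.44 and 1.25 CPM under saline. Pkib rose in ko by 3.48 ± 0.29 on the log2 scale (adjusted p = 6.1e-07) and was at -0.37 ± 0.36 in wt (adjusted p = 0.45, edgeR). Of the 9 kinase subunits and inhibitors, 3 rose and 2 fell under CL in ko, and 2 rose and 1 fell in wt, near the shares of all genes.

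Pde3b encodes the phosphodiesterase through which insulin lowers cyclic AMP in fat cells (ENSMUSG00000030671, chromosome 7, 114415281 to 114539251, plus strand). It was at 128, 158 and 135 CPM in ko CL and 341, 297 and 305 CPM in ko saline. The wt libraries were at 426, 433 and 403 CPM under CL and 420, 418 and 412 CPM under saline, and these groups overlapped. Pde3b fell to 44.7% under CL in ko (-1.16 ± 0.08, adjusted p = 1.7e-07), against a wt value of 0.01 ± 0.08 (adjusted p = 0.92), which was -0.30 with libraries scaled by total alone. The responses differed by -1.18 ± 0.12 (adjusted p = 6.3e-06, edgeR). Against wt, ko was at 33.4% under CL (-1.58 ± 0.09, adjusted p = 9.9e-09) and at 75.4% under saline (-0.41 ± 0.08, adjusted p = 0.008).

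Pde4b and Pde4d encode cyclic AMP-specific phosphodiesterases with many isoforms, which the counts do not separate. Pde4b (ENSMUSG00000028525, chromosome 4, 102087543 to 102607259, plus strand) was at 17.4, 22.7 and 22.3 CPM in ko CL and 26.9, 25.0 and 26.1 CPM in ko saline. The wt libraries were at 31.8, 42.6 and 39.3 CPM under CL and 25.1, 24.4 and 32.1 CPM under saline, so the wt groups overlapped through 1 library of each. It rose in wt (0.48 ± 0.13, adjusted p = 0.013), a call lost without wt saline 1, wt saline 2 or wt CL 2 (adjusted p = 0.052 to 0.064). In ko its groups did not overlap, and the value was -0.32 ± 0.13 (adjusted p = 0.056), called as lower by DESeq2 (-0.33, adjusted p = 0.045), as well as with other filters on low counts and with libraries scaled by total alone. Leaving out wt saline 1, wt saline 3, wt CL 1, ko CL 2 or ko CL 3 also gave that call (adjusted p = 0.034 to 0.041, edgeR), so it lay near the threshold. The responses differed by -0.80 ± 0.19 (adjusted p = 0.0038), and under CL ko was at 54.9% of wt (-0.87 ± 0.13, adjusted p = 0.0001, edgeR).

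Pde4d (ENSMUSG00000021699, chromosome 13, 108449948 to 109953461, plus strand) was at 11.3, 14.8 and 13.5 CPM in ko CL and 9.50, 13.1 and 9.16 CPM in ko saline. The wt libraries were at 29.6, 26.8 and 29.6 CPM under CL and 21.2, 19.5 and 16.5 CPM under saline. All 6 ko libraries lay below all 6 wt libraries. Its CL response was 0.32 ± 0.14 in ko (adjusted p = 0.076) and a rise of 0.59 ± 0.14 in wt (adjusted p = 0.0051). The ko value was 0.39 without ko CL 1 (adjusted p = 0.044) and 0.47 without ko saline 2 (adjusted p = 0.012). Their difference was -0.27 ± 0.20 (adjusted p = 0.30), so the responses were not shown to differ. Against wt, ko was at 46.0% under CL (-1.12 ± 0.14, adjusted p = 1.8e-05) and 55.4% under saline (-0.85 ± 0.14, adjusted p = 0.0027, edgeR).

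The 18 phosphodiesterases summed to 57.8 CPM per kb in ko CL, 76.2 in ko saline, 98.8 in wt CL and 88.6 in wt saline. Pde3b made up 26.6% of the sum in ko CL, 45.2% in ko saline, 46.7% in wt CL and 51.6% in wt saline. The share was lower by 18.6 points under CL than under saline in ko and by 4.93 points in wt, each at an exact permutation p of 0.1. Of the 17 phosphodiesterases tested, 7 rose and 5 fell under CL in ko, and 5 rose and 2 fell in wt. Over all genes, 27.2% rose and 27.5% fell in ko, and 19.6% rose and 17.1% fell in wt. Between ko and wt under CL, 5 were higher and 9 lower in ko, against 27.6% and 29.3% of all genes. Pde1b, activated by calcium and calmodulin, rose in ko (1.39 ± 0.09) and was at 0.05 ± 0.09 in wt (adjusted p = 0.74). Pde8b rose in ko (1.71 ± 0.23) and was at -0.27 ± 0.24 in wt (adjusted p = 0.42). Pde7a, specific for cyclic AMP, fell in ko (-0.74 ± 0.13) and was at 0.21 ± 0.14 in wt (adjusted p = 0.25), a wt value called when only the wt groups were fitted (adjusted p = 0.049, edgeR). Pde8a, a relative with high affinity for cyclic AMP, rose in both, by 0.35 ± 0.08 in ko and by 0.76 ± 0.08 in wt (edgeR). Pde2a was listed at 0 in every library.

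Hcar2 and Adora1, receptors that act against cyclic AMP, fell under CL in ko and rose in wt. Of 7 receptors coupled to the inhibitory G protein that restrain lipolysis, none rose and 5 fell under CL in ko, while 3 rose and 2 fell in wt. Over all genes, 27.2% rose and 27.5% fell in ko, and 19.6% rose and 17.1% fell in wt. Between ko and wt under CL, 6 of 7 were lower in ko, against 29.3% of all genes. Hcar2, the niacin and ketone body receptor, was at 9.25, 7.08 and 7.41 CPM in ko CL, 20.3, 19.7 and 19.2 CPM in ko saline, 47.3, 41.3 and 48.3 CPM in wt CL and 27.2, 29.6 and 23.9 CPM in wt saline. It fell in ko (-1.31 ± 0.11) and rose in wt (0.76 ± 0.10). Adora1, the adenosine receptor of fat cells, likewise fell in ko (-1.36 ± 0.12) and rose in wt (0.55 ± 0.12). Ptger3, a prostaglandin E2 receptor, was at -0.20 ± 0.18 in ko (adjusted p = 0.38), or -0.52 without ko CL 3 (adjusted p = 0.0054, edgeR), and rose in wt (1.66 ± 0.18). Sucnr1, the succinate receptor, fell in both (-1.91 ± 0.10 in ko and -0.45 ± 0.09 in wt, edgeR). The difference between the responses, ko minus wt, was called lower for 6 of the 7 receptors and higher for none. Of all genes, 23.6% were called lower and 21.8% higher in that test. These 4 receptors were chosen for the smallest adjusted p in that difference, so their being called is no separate result. Their differences were -2.08 ± 0.15 for Hcar2, -1.91 ± 0.17 for Adora1, -1.85 ± 0.26 for Ptger3 and -1.47 ± 0.13 for Sucnr1.

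Among 16 genes of receptor desensitization and trafficking, 7 rose and 1 fell under CL in ko, and 6 rose and 3 fell in wt, where 54.6% of all genes were called in ko and 36.8% in wt. Rgs2, a regulator that shortens G protein signals, rose in both genotypes, to 118, 99.9 and 76.3 CPM in ko CL against 15.7, 19.1 and 18.5 CPM in ko saline, and to 59.6, 84.3 and 72.4 CPM in wt CL against 20.8, 15.01 and 17.2 CPM in wt saline. Its log2 changes were 2.47 ± 0.17 in ko and 2.03 ± 0.17 in wt, which were not called different (adjusted p = 0.16); they were without ko CL 3 (0.57, adjusted p = 0.046) and with libraries scaled by total alone (0.67, adjusted p = 0.048, edgeR). The arrestin Arrb2, which uncouples and internalizes receptors, was at 103, 83.7 and 78.6 CPM in ko CL, 29.5, 33.3 and 35.3 CPM in ko saline, 34.6, 34.4 and 29.3 CPM in wt CL and 36.6, 36.6 and 35.6 CPM in wt saline. It rose in ko (1.43 ± 0.10) and was at -0.15 ± 0.10 in wt (adjusted p = 0.29), while Arrb1 rose in ko (0.35 ± 0.07) and fell in wt (-0.48 ± 0.07). The receptor kinase Grk2 rose in ko (0.91 ± 0.08) and was at 0.06 ± 0.08 in wt (adjusted p = 0.59), whereas Grk3 rose in wt (1.19 ± 0.12) and was at 0.25 ± 0.12 in ko (adjusted p = 0.084, edgeR); that ko value was called when wt CL 3 was left out (adjusted p = 0.014) or only the ko groups were fitted (adjusted p = 0.042).

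Of 15 tested subunits of heterotrimeric G proteins, 5 rose and 4 fell under CL in ko, and 4 rose and 2 fell in wt, shares near those of all genes called (54.6% in ko and 36.8% in wt). Gnai1, an inhibitory alpha subunit, fell in ko to 157, 168 and 178 CPM in ko CL, against 430, 374 and 357 CPM in ko saline (-1.21 ± 0.08), and was at -0.26 ± 0.08 in wt. Gnai2, the alpha subunit common in immune cells, rose in ko (0.46 ± 0.09) and was at -0.24 ± 0.09 in wt, and Gng2 rose in ko (1.86 ± 0.11) and was at 0.33 ± 0.11 in wt. Gnb5, a beta subunit, fell in ko (-0.53 ± 0.07) and was at 0.13 ± 0.07 in wt (adjusted p = 0.14, edgeR), or -0.18 with libraries scaled by total alone. The wt calls did not hold throughout: for Gnai1 without wt saline 2, wt saline 3, wt CL 1 or wt CL 2 (adjusted p = 0.062 to 0.090), for Gnai2 without wt saline 1, wt saline 2 or any wt CL library (0.056 to 0.16), and for Gng2 without any wt saline library, wt CL 2, wt CL 3 or ko saline 2 (0.056 to 0.11). Of 12 tested anchoring proteins, which tether protein kinase A, 2 rose and 5 fell under CL in ko, and 4 rose and 1 fell in wt, again near the shares of all genes. Akap1, on the mitochondrial outer membrane, fell in ko (-0.40 ± 0.08) and rose in wt (0.61 ± 0.08), and so did Akap7 (-0.72 ± 0.06 in ko and 0.32 ± 0.06 in wt, edgeR). Akap2 and Gng10 were listed at 0 in every library. The sum of 19 macrophage markers, 12249 to 17671 CPM in ko CL against 1856 to 1937 CPM in ko saline, moved with the rises of Arrb2, Grk2, Gnai2, Gng2, Pkib, Pde1b and Pde8b in ko; its part in them was not tested.

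Of 17 tested transcripts known to answer to cyclic AMP, 6 rose and 3 fell under CL in ko, and 4 rose and 2 fell in wt. These counts are near the shares of all genes called, 54.6% in ko and 36.8% in wt. Ucp1, the uncoupling protein of thermogenic fat, was at 10.2, 51.9 and 51.0 CPM in ko CL and 0.181, 0.0732 and 0.0638 CPM in ko saline, against 94.6, 78.5 and 76.6 CPM in wt CL and 0.339, 0 and 0.249 CPM in wt saline. It was close to absent without CL and rose in both (adjusted p = 2.5e-06 in ko and 4.5e-06 in wt, edgeR), and the lowest of the ko CL libraries was ko CL 1. Dio2, which activates thyroid hormone, rose by 1.14 ± 0.32 in ko and 2.47 ± 0.31 in wt; the difference of -1.33 ± 0.44 (adjusted p = 0.027) was -1.23 to -0.91 and not called without wt saline 2, wt CL 2, ko saline 1 or ko CL 1 (adjusted p = 0.051 to 0.093, edgeR). Ppargc1a, a coactivator of mitochondrial genes, was at 4.92, 7.58 and 9.83 CPM in ko CL, 11.2, 9.81 and 11.6 CPM in ko saline, 19.8, 20.2 and 19.3 CPM in wt CL and 12.2, 12.4 and 11.7 CPM in wt saline. It fell in ko (-0.56 ± 0.18) and rose in wt (0.71 ± 0.17), and Crem, a cyclic AMP-responsive factor, did so too (-0.23 ± 0.07 in ko and 0.30 ± 0.07 in wt, the wt value being -0.014 with libraries scaled by total alone). The Ppargc1a value in ko was -0.35 without ko CL 1, and it was not called when only the ko groups were fitted (-0.56, adjusted p = 0.068, edgeR). Irf4, a transcription factor of thermogenic fat and of immune cells, rose in ko (0.79 ± 0.14) and fell in wt (-0.58 ± 0.14), as most macrophage markers did; their part was not tested. Sik2, a kinase that holds back the CREB coactivators, fell in ko (-0.89 ± 0.10) and was at -0.05 ± 0.10 in wt (adjusted p = 0.75, edgeR).

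The difference of responses stayed called for the 7 genes when ko CL 1 was left out. Without it, the difference was -1.89 for Adrb3, 1.89 for Adcy3, -1.12 for Pde3b, -0.92 for Prkar2b, -0.69 for Pde4b, -0.68 for Prkaca and -1.76 for Adrb1. Scaling by library totals alone moved the median log2 fold change of all genes to -0.33 for CL in wt and to 0.39 for ko against wt under CL. The wt rises of Prkar2b (0.14), Pde4b (0.17) and Pde4d (0.27) were not called on that scale, while that of Prkaca (0.50) was; relative to the shifted median, all 4 lay above it. The wt rises of Adora1, Akap7, Gng2 and Ppargc1a were not called on that scale either, nor were the differences of responses of Adcy6, Pde8a and Dio2.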

How the data were processed

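The authors deposited raw counts per gene, made with STAR and HTSeq on GRCm38 per the submitters' processing notes; their versions and the annotation release were not stated. Reverse-strand counting is per the labels of the files. Groups came from sample titles. Of 53379 gene identifiers, 53274 were matched to GENCODE M21 symbols. HTSeq's summary lines (12.5% to 17.2% of reads) were left out, and reads matching several genes are not counted, so genes with copies are undercounted.

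Counts were analysed in R 4.3.3 with edgeR 4.0.16: filterByExpr with a minimum count of 10 (16554 genes kept), TMM scaling, quasi-likelihood tests on all 12 libraries with 1 mean per group (8 residual degrees of freedom, common biological coefficient of variation 11.5%), and Benjamini-Hochberg adjustment over all genes at 0.05. Standard errors are log2 fold changes divided by the square root of F. CPM per kb divides by exonic length; family shares were compared by exact two-sided permutation. Genes described beside the 9 come from those of each pathway list with the smallest adjusted p, up to 4 for the difference of responses and up to 2 each for CL in wt and in ko, and the 5 genes most like Adrb3; not every such gene is described. The 9 genes, the lists and the tests were chosen with earlier results of these data known. Alternatives were DESeq2 1.42.0, other scalings and filters, fits on 2 groups, a replicate block and leaving out each library. Promoter windows are RefSeq's. Within a group no 2 libraries agreed within sampling noise. Chi-square per degree of freedom was 55.5 and 37.7 for the pairs with ko CL 1 and 12.7 for the remaining ko CL pair. It was 6.96 to 16.3 in the other groups. The fit shares its estimate of the spread over groups, so a standard error does not measure a group's own spread.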

Additional observations from a re-analysis of the deposited data

Results flagged for a closer look

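The response to CL differed between the genotypes, by the test of the difference itself (edgeR, adjusted p under 0.05), for the genes below; each value is the log2 response in ko minus that in wt, each response from 3 CL and 3 saline libraries. Of all genes tested, 45.4% met the same test. Apart from Cdk7 and the genes chosen by symbol and role, those below were picked for small adjusted p-values, many in this same test. The number of picked genes cannot be compared with the 45.4%, and their being called is no separate result.

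Among the receptors, the difference was -1.98 for Adrb3 and -1.74 for Adrb1. Of the cyclases, it was 2.04 for Adcy3, 3.06 for Adcy7, -1.12 for Adcy5 and -0.58 for Adcy6. In the protein kinase A group it was -0.79 for Prkaca, -1.06 for Prkar2b, 3.85 for Pkib, -1.01 for Akap1 and -1.04 for Akap7. The phosphodiesterases had -1.18 for Pde3b, -0.80 for Pde4b, 1.34 for Pde1b, 1.98 for Pde8b, -0.95 for Pde7a and -0.41 for Pde8a.

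The inhibitory receptors had -2.08 for Hcar2, -1.91 for Adora1, -1.85 for Ptger3 and -1.47 for Sucnr1. Of the G protein subunits, Gnai1 had -0.95, Gnai2 0.70, Gnb5 -0.66 and Gng2 1.53. For receptor kinases and arrestins it was -0.94 for Grk3, 0.85 for Grk2, 0.83 for Arrb1 and 1.58 for Arrb2. The cyclic AMP-related transcripts had -0.84 for Sik2, -0.54 for Crem, -1.27 for Ppargc1a, 1.38 for Irf4 and -1.33 for Dio2.

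Cdk7 itself had 0.70, since it rose under CL in ko (0.84 ± 0.10) and was at 0.14 ± 0.09 in wt (adjusted p = 0.25, edgeR).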

How the results depend on the processing

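Over the alternatives, 791 of 841 values of the 9 genes kept their direction and their side of the threshold. With libraries scaled by totals alone, CL in wt gave 1 of the 9 genes as higher and 2 as lower. Over all genes it gave 1329 higher and 8048 lower, 8667 higher and 2237 lower in ko against wt under CL, 3733 higher and 506 lower in ko against wt under saline, and 2267 lower for the difference of responses. Some values that were called on that scale or on the reported scale turned sign. For CL in wt these were Pde3b (-0.30), Amy1 (-0.29), Grk2 (-0.26), Pde1b (-0.27), Crem (-0.014) and Gnb5 (-0.18). For ko against wt under CL it was Gnas (0.10). Values called on neither scale turned sign too, among them Gnas (-0.17) and Adcy3 (-0.13) for CL in wt. The median of all genes moved with the scale. Leaving out single libraries gave 1 to 2 of the 9 genes higher under CL in ko (2 without ko saline 2 or ko CL 1, where Pde4d was called). In ko against wt under saline it gave 509 to 1640 genes higher and 551 to 1356 lower over all genes, with the lower counts without wt saline 2, wt saline 3, ko saline 1 or ko saline 2; the cause was not tested. Without single libraries, the share for CL in ko was -15.5 to -9.42 points for Prkar2b and -20.1 to -17.6 points for Pde3b.

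The same-numbered libraries share only a number: their deviations from group means correlated at -0.36 to 0.18, over 0.1 in 2 of 18 pairs. With the replicate block, 3060 genes were higher and 2649 lower for CL in wt, 4306 and 4391 for CL in ko, and 1157 and 931 for ko against wt under saline; among the 9 genes, Pde4b was then called lower for CL in ko (-0.33, adjusted p = 0.034), and Gnai2 was not called for CL in wt (-0.24, adjusted p = 0.065). Adrb1, with 18 to 49 counts, is the gene whose depth limits its precision most.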

Other observations

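Markers of cell types other than fat cells and macrophages were counted beside the 54.6% of all genes called for CL in ko and the 36.8% called in wt. Of 10 endothelial markers, 9 fell and none rose under CL in ko, against 6 that rose and none that fell in wt; their sum was 730 to 932 CPM in ko CL, 1223 to 1289 CPM in ko saline, 1592 to 1970 CPM in wt CL and 1368 to 1410 CPM in wt saline. Of 10 fibroblast and progenitor markers, 4 rose and 2 fell in ko, and none rose and 7 fell in wt. Of 10 smooth muscle and pericyte markers, 2 rose and 5 fell in ko, and 1 rose and 3 fell in wt, near the shares of all genes in wt. Among 8 mesothelial markers, 1 rose and 4 fell in ko, and none rose and 8 fell in wt. None of 8 T cell markers was called in ko, and 1 fell in wt, and 1 of 6 B cell markers rose in ko and 1 fell in wt. The B cell sum was 2597 CPM in ko CL 2, against 413 and 466 CPM in the other ko CL libraries. Markers of duct epithelium summed to 32.1 to 46.7 CPM in ko CL, 96.0 to 149 CPM in ko saline, 23.1 to 32.7 CPM in wt CL and 49.7 to 79.1 CPM in wt saline. Nerve and Schwann cell markers stayed at 8.87 to 19.2 CPM in sum in every library, with 6 of 10 tested. The part of these cells in the changes of the signalling genes was not tested.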
